A study of Mus musculus with 6 samples.

Results

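The interferon regulatory factors (IRF) are a family of transcription factors, and 8 of them were followed here in N9 microglia: Irf1, Irf2, Irf3, Irf4, Irf5, Irf7, Irf8 and Irf9. They were picked by gene symbol from the 54532 genes of the deposited count table. The rule for membership used no counts, but the family was chosen with earlier results on these data known. N9 is an immortalized line of mouse microglia. Lipopolysaccharide (LPS) is an outer membrane molecule of gram-negative bacteria, sensed by Toll-like receptor 4. RNA was sequenced from 3 control samples of untreated cells and from 3 samples kept with LPS at 1 µg/ml for 6 h. The comparison asks which genes this stimulation changes, and all samples came from 1 cell line in culture. Nothing in the labels says whether the 3 samples of a group were separate cultures, so the p-values measure the spread between these samples, which may be technical.

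All IRF proteins bind DNA through a shared N-terminal domain, at sites built on repeats of GAAA. Irf3 and Irf7 are activated by phosphorylation downstream of pattern recognition receptors and switch on type I interferon genes. Secreted interferon then acts through its receptor and the kinases Jak1 and Tyk2 to form ISGF3, a complex containing Stat2 and Irf9 that turns on interferon-stimulated genes. Irf1 activates many of the same genes and Irf2 is known mainly as its competitor. Irf5 acts downstream of MyD88 on inflammatory cytokine genes. Irf8 and Irf4 bind DNA together with PU.1, the product of Spi1, and Irf8 is required for microglia to develop.

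Of the 8 genes, 5 were up-regulated with LPS (Irf7, Irf9, Irf1, Irf2 and Irf5), 1 was down-regulated (Irf8), and Irf3 and Irf4 did not pass the test. All 8 were among the 12296 genes tested, of which 18.7% were higher and 15.7% lower at an adjusted p under 0.05 in edgeR's quasi-likelihood test. Irf7 and Irf9 also met the definition of a differentially expressed gene (DEG), an adjusted p under 0.05 with an absolute log2 fold change (log2FC) over 1.5, which 2.65% of the tested genes met. The LPS libraries lay wholly above or wholly below the control libraries for 7 of the 8 genes, against 45.3% of all tested genes. The median log2FC of the 8 genes was 0.47, and that of all tested genes was 0.0036. Total counts per library lay between 16363767 and 17956772, and the 8 genes were covered by between 25 counts (Irf4) and 2490 counts (Irf7) in a library. Levels are given as CPM, in which the counts of a gene are divided by the TMM-scaled size of its library, and 3 counts correspond to between 0.161 and 0.19 CPM.

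**Figure D1:**
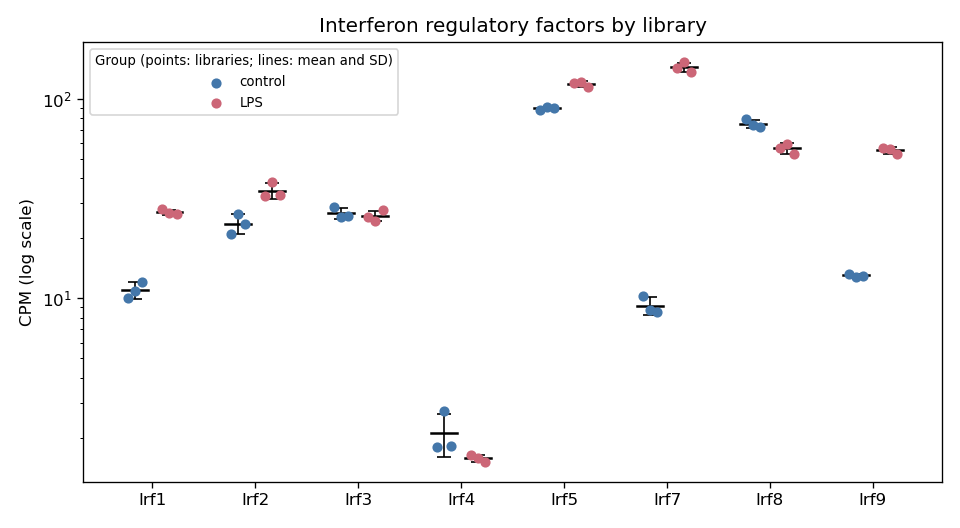
CPM of each interferon regulatory factor on a log scale, with 1 point for each library (control in blue, LPS in red) and black lines for the group mean and its SD (n = 3). Irf7 and Irf9 show the widest gaps between the groups, and the groups overlap for Irf3 alone.

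The state of the cells was checked by marker lists. Of 15 microglia and macrophage markers, 13 passed the filter on low counts, and Cd68, Csf1r and Spi1 were abundant, with Spi1 lowest of the 3 at 4804 to 7114 counts. P2ry12, a marker of resting microglia in the brain, had at most 6 counts in any library, and Aif1 at most 9. Cx3cr1, the fractalkine receptor, had 33 to 68 counts. B cell markers, with Ms4a1 at 0, summed to between 15 and 28 counts in a library. T and NK cell markers summed to between 0 and 4. Among the B cell markers, Pax5 had 0 counts in each control library and 18, 11 and 10 with LPS. Ighm had 17, 27 and 16 counts in control and 7, 10 and 5 with LPS. Each passed the filter on low counts through the group where it was high, so these counts are a description. Summed dendritic cell markers were 117 to 144 counts in control and 285 to 342 with LPS. Xcr1 gave 29 to 51 of these in control and 221 to 258 with LPS. Control replicates 2 and 3 held 228 and 381 counts of hepatocyte markers, against 2 in control replicate 1 and 1 to 9 in the LPS libraries. With those 2 libraries left out, 5 members were still higher, 1 lower and 2 DEG. The lone control library is then assumed to vary like the LPS libraries. That library, control replicate 1, held the most counts of endothelial cell and fibroblast markers, 148, against 9 and 93 in the other control libraries and 95, 25 and 17 with LPS. With only control replicate 1 left out, the counts of members were again 5, 1 and 2. Summed neuron markers were 453 to 517 counts in control and 455 to 531 with LPS, of which Map2 fell (log2FC −0.41, edgeR adjusted p = 0.00221) and Tubb3 rose (1.67, edgeR adjusted p = 7.27e-07). Astrocyte markers summed to 480 to 537 counts in control and 350 to 409 with LPS, and oligodendrocyte markers to 620 to 682 and 459 to 473. Aldh1l1 gave 476 to 534 of the astrocyte counts in control and 350 to 403 with LPS. Mbp gave 616 to 672 of the oligodendrocyte counts in control and 457 to 467 with LPS. The part of these transcripts in the members' values was not tested.

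Irf7, the inducible amplifier of type I interferon production, changed most. It lies at chr7:141262706-141266481 on the minus strand of mm10 (ENSMUSG00000025498). The control libraries held 176, 154 and 159 counts, equal to 10.3, 8.73 and 8.55 CPM. The LPS libraries held 2243, 2490 and 2241 counts, equal to 142, 152 and 136 CPM. Every LPS library was far above every control library, and the spread within either group was small beside that gap. The mean rose from 9.19 ± 0.947 to 143 ± 7.78 CPM (SD, n = 3), 15.6-fold, with a log2FC of 3.97 (SE 0.07) and an edgeR adjusted p of 6.36e-15. Among the 797 tested genes to which the table assigns a transcription factor family, Irf7 ranked 2nd by fitted log2FC. Only Pax5, the B cell marker given above, ranked higher, and it was named after its values were seen. Its log2FC was fitted against 0 counts in each control library, so its place relative to Irf7 is not settled. Irf7 shares 45 bases with Phrf1 on the opposite strand, and Phrf1 had a log2FC of −0.05 (edgeR adjusted p = 0.546).

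Irf9, the DNA-binding subunit of ISGF3, was the other DEG of the family. It lies at chr14:55603571-55610030 on the plus strand (ENSMUSG00000002325). Its level was 13.3, 12.8 and 13.0 CPM in control and 56.6, 55.6 and 52.9 CPM with LPS. The libraries of each group lay close together and the groups stood wide apart. The mean rose from 13.0 ± 0.280 to 55.0 ± 1.94 CPM (SD, n = 3), 4.23-fold, with a log2FC of 2.08 (SE 0.07) and an edgeR adjusted p of 8.00e-12. Irf9 overlaps the 3′ end of Rnf31, a ubiquitin ligase gene on the same strand, over 123 bases. Rnf31 rose from 21.1 ± 1.03 to 35.7 ± 1.39 CPM (SD, n = 3), a smaller log2FC of 0.76 (SE 0.08). Reads in the shared bases cannot be assigned to one of these genes by position.

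Irf1 and Irf2, which recognise the same sites and act mostly as activator and repressor, both rose. Irf1 lies at chr11:53770014-53778374 on the plus strand (ENSMUSG00000018899). Its level was 9.98, 10.8 and 12.1 CPM in control and 28.0, 26.7 and 26.5 CPM with LPS, so the lowest LPS library was more than double the highest control library. The mean rose from 11.0 ± 1.07 to 27.1 ± 0.789 CPM (SD, n = 3), with a log2FC of 1.30 (SE 0.10) and an edgeR adjusted p of 5.46e-08. This is below the fold threshold for a DEG. Irf2 lies at chr8:46739732-46847458 on the plus strand (ENSMUSG00000031627) and measured 21.02, 26.5 and 23.5 CPM in control and 32.5, 38.2 and 32.9 CPM with LPS. Replicate 2 was the highest in both groups, and the groups did not overlap. The mean of Irf2 rose from 23.7 ± 2.73 to 34.5 ± 3.21 CPM (SD, n = 3), with a log2FC of 0.55 (SE 0.10) and an edgeR adjusted p of 3.93e-04. The ratio of Irf1 to Irf2 counts within a library, not corrected for length, is compared between groups only. Its log2 value was −1.07, −1.29 and −0.96 in control and −0.22, −0.52 and −0.31 with LPS, so it lay higher in every LPS library. The mean difference was 0.76 (SE 0.13), and the exact two-sided permutation test gave p = 0.1, the smallest that 3 against 3 libraries allow (0.2 after Benjamini-Hochberg adjustment over 4 pairs of genes).

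Irf5 and Irf3 had substantial levels before stimulation. Irf5 lies at chr6:29526625-29541871 on the plus strand (ENSMUSG00000029771) and measured 87.9, 90.6 and 90.1 CPM in control and 119, 121 and 114 CPM with LPS. The rise was modest but every LPS library exceeded every control library. The mean went from 89.6 ± 1.45 to 118 ± 3.73 CPM (SD, n = 3), with a log2FC of 0.40 (SE 0.05) and an edgeR adjusted p of 6.26e-06. Tnpo3, which overlaps the 3′ end of Irf5 from the opposite strand over 1045 bases, had a log2FC of −0.03 (edgeR adjusted p = 0.737). Irf3, the constitutive factor that starts the interferon response, lies at chr7:44997648-45002848 on the plus strand (ENSMUSG00000003184). It measured 28.6, 25.4 and 25.9 CPM in control and 25.5, 24.5 and 27.5 CPM with LPS. The groups overlapped. The log2FC of Irf3 was −0.04, with a 95% interval from −0.22 to 0.13 and an edgeR adjusted p of 0.744, so a change in its transcript beyond that interval was not seen at this depth. Its activity is set by phosphorylation, which these data do not measure. Irf3 also shares 1065 bases with Bcl2l12 on the opposite strand (log2FC −0.46, edgeR adjusted p = 0.108).

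The ratio of Irf7 to Irf3 turned over with LPS. Its log2 value was −1.47, −1.54 and −1.59 in control and 2.48, 2.63 and 2.31 with LPS. In counts, not corrected for length, the mean ratio went from 0.345 to 5.54. The difference of 4.01 (SE 0.10) on the log2 scale compares with a log2FC of 3.97 for Irf7 itself, and the exact permutation test again gave its smallest p of 0.1 (0.2 after adjustment over 4 pairs).

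Irf8, the partner of PU.1 in the myeloid lineage, was the only member called lower. It lies at chr8:120736358-120756694 on the plus strand (ENSMUSG00000041515) and measured 78.9, 73.8 and 71.9 CPM in control and 56.8, 59.4 and 52.9 CPM with LPS. All LPS libraries lay below all control libraries. The mean fell from 74.8 ± 3.61 to 56.3 ± 3.30 CPM (SD, n = 3), to 75.3% of control, with a log2FC of −0.41 (SE 0.06) and an edgeR adjusted p of 6.63e-05. In bulk RNA, fewer cells with a transcript and less of it per cell cannot be told apart. Spi1 went the other way, from 282 ± 10.2 to 424 ± 13.5 CPM (SD, n = 3), with a log2FC of 0.58 (SE 0.04) and an edgeR adjusted p of 5.43e-08. Irf4, the closest relative of Irf8, lies at chr13:30749226-30766976 on the plus strand (ENSMUSG00000021356) and was close to the limit of the data. It had 31, 48 and 34 counts in control and 26, 26 and 25 with LPS. All LPS libraries were below all control libraries, and control replicate 2 stood above the other two. The log2FC of Irf4 was −0.42 with a 95% interval from −1.01 to 0.17 and an edgeR adjusted p of 0.274, with far less precision than Irf8. Leaving out 1 library at a time moved the log2FC of Irf4 between −0.53 and −0.21, the latter without control replicate 2. The log2 ratio of Irf8 to Irf4 counts averaged 5.15 ± 0.355 in control and 5.12 ± 0.0669 with LPS (SD, n = 3), with overlapping groups and p = 0.9 in the exact permutation test. Leaving out 1 library at a time moved that difference between −0.23 and 0.11.

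**Figure D2:**
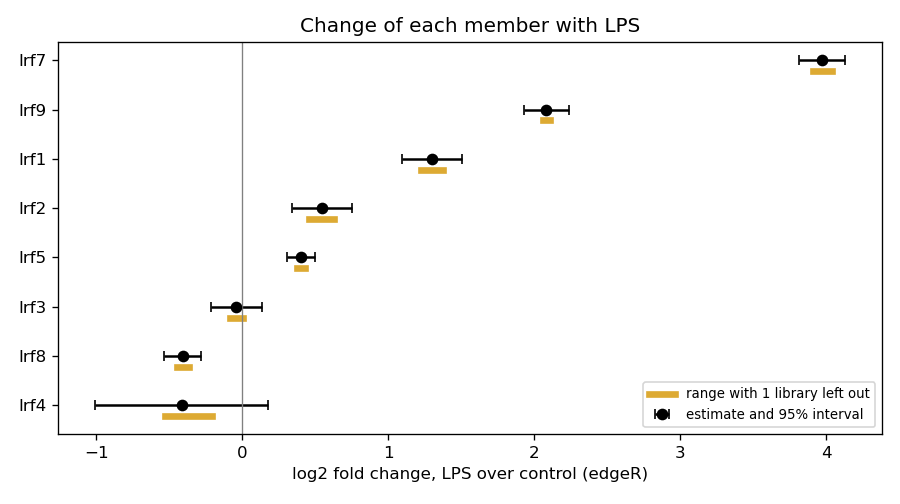
Log2 fold change of each member, LPS over control, from edgeR. Black points and bars give the estimate and its 95% interval, and yellow bars the range of estimates with 1 library left out. The intervals of Irf7, Irf9, Irf1, Irf2 and Irf5 lie above 0, that of Irf8 lies below 0, and those of Irf3 and Irf4 cross it.

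Promoters were read from RefSeq on GRCm38.p6 for all 8 genes. The 250 bases before each start were searched on both strands for the core of the interferon-stimulated response element (ISRE), GAAANNGAAA, for the gamma-activated site bound by STAT dimers (GAS), TTCNNNGAA, and for the NF-kappa B consensus. Of 32851 promoters in the table, 2.98% held the ISRE core, 7.02% the GAS and 3.9% the NF-kappa B consensus. Matches were found for 3 of the 8 genes, and none overlapped another. The share of all promoters with any of the 3 motifs was not taken. The promoters of these 3 genes are shown because they held matches, and that of Irf7 because it changed most. Irf1 and Irf2 rose with LPS and Irf8 fell, and Irf5, Irf7 and Irf9 also changed, without a match in their windows. Matches are in capitals, each sequence runs 5′ to 3′ in the direction of the gene, and a match is a description of the letters, not evidence of binding.
Irf1, chr11:53769764-53770013, plus strand: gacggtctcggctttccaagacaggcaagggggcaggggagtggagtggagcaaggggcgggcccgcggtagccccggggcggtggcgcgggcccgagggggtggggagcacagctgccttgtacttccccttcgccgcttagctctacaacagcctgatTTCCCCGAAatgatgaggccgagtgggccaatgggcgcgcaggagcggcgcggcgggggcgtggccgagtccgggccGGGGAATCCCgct
Irf2, chr8:46739495-46739744, plus strand: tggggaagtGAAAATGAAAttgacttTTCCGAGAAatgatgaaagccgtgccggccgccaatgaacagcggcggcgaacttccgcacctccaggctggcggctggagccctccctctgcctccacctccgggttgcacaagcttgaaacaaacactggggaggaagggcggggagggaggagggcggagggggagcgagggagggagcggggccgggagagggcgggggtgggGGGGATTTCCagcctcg
Irf8, chr8:120736108-120736357, plus strand: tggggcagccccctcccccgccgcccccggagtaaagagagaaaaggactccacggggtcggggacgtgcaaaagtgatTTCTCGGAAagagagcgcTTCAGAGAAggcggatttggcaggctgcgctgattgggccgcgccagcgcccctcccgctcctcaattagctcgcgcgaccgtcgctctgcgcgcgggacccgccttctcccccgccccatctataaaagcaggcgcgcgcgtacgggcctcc
Irf7, chr7:141266482-141266674, minus strand: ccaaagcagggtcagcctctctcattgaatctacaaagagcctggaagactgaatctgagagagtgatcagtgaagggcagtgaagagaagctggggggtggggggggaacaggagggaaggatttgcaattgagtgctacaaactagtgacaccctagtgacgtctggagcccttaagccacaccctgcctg

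In Irf1 the GAS, TTCCCCGAA, lay 90 to 82 bases before the start and the NF-kappa B match, GGGGAATCCC, 13 to 4 bases before it. Irf2 was the only member with all 3 motifs, the ISRE core GAAAATGAAA at 241 to 232 bases, the GAS TTCCGAGAA at 224 to 216 bases and the NF-kappa B match GGGGATTTCC at 17 to 8 bases before the start. Irf8 had 2 GAS, TTCTCGGAA at 171 to 163 bases and TTCAGAGAA at 153 to 145 bases. The windows of Irf3, Irf4, Irf5, Irf7 and Irf9 held none of these letters. The RefSeq start of Irf2 lies 13 bases inside the gene as deposited, so its NF-kappa B match straddles the deposited start and the last 13 bases shown are inside the gene. The RefSeq start of Irf7 lies 57 bases inside the gene as deposited, so its sequence above is cut to the 193 bases outside the gene. That of Irf9 lies 414 bases inside, so its whole window is within the deposited gene and the bases upstream of that gene were not searched.

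Per length, the make-up of the family shifted from Irf5 and Irf8 towards Irf7. CPM per kilobase of the deposited gene length (RPKM) summed over the 8 genes to 60.4 ± 0.368 in control and 116 ± 3.96 with LPS (SD, n = 3), a ratio of 1.92. In control, Irf5 made up 51.0% ± 0.998 of that sum, Irf8 17.6% ± 0.765 and Irf3 12.8% ± 0.795, and Irf7 4.03% ± 0.398 (SD, n = 3). With LPS, Irf5 made up 35.0% ± 0.252 and Irf7 32.7% ± 0.709, while Irf8 made up 6.87% ± 0.170 (SD, n = 3). Irf5 lost share although its own level rose. Irf9 went from 4.0% ± 0.0831 to 8.79% ± 0.213 and Irf1 from 4.57% ± 0.472 to 5.86% ± 0.231 (SD, n = 3). Irf2 lost share, from 5.30% ± 0.612 to 4.02% ± 0.273, as did Irf3, to 6.48% ± 0.606, and Irf4, from 0.715% ± 0.174 to 0.278% ± 0.00966 (SD, n = 3).

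The order of the RPKM levels in control was Irf5 (30.8 ± 0.498), Irf8 (10.6 ± 0.512), Irf3 (7.74 ± 0.503), Irf2 (3.20 ± 0.369), Irf1 (2.76 ± 0.269), Irf7 (2.43 ± 0.251), Irf9 (2.42 ± 0.0520) and Irf4 (0.432 ± 0.106). From Irf2 down to Irf9, each gene overlapped the next in that order. With LPS the order was Irf5 (40.7 ± 1.28), Irf7 (38.0 ± 2.06), Irf9 (10.2 ± 0.361), Irf8 (7.99 ± 0.467), Irf3 (7.51 ± 0.444), Irf1 (6.80 ± 0.198), Irf2 (4.67 ± 0.434) and Irf4 (0.323 ± 0.0128). Irf5 and Irf7 overlapped, as did Irf8 and Irf3. The order depends on the length used. The deposited length of Irf7, 3776 bases, equals its whole span on the chromosome, introns included, while its longest coding transcript in GENCODE M21 has 2237 bases. Per that transcript's length, Irf7 (64.1 ± 3.48) lay above Irf5 (52.7 ± 1.66) with LPS, without overlap. Irf8 (19.8 ± 1.16) then ranked above Irf9 (18.6 ± 0.657) with LPS, with overlapping libraries. Irf2 (13.8 ± 1.28) moved from below Irf1 and Irf3 to above both, with Irf3 at 12.7 ± 0.753 and Irf1 at 12.7 ± 0.369, with overlapping libraries, so the order of Irf1 and Irf2 depends on the length used. On that length, the shares in control and with LPS were 38.8% and 27.1% for Irf5, 25.5% and 10.2% for Irf8, 9.21% and 7.09% for Irf2, and 0.432% and 0.171% for Irf4, while those of Irf7 were 3.99% and 32.9%.

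**Figure D3:**
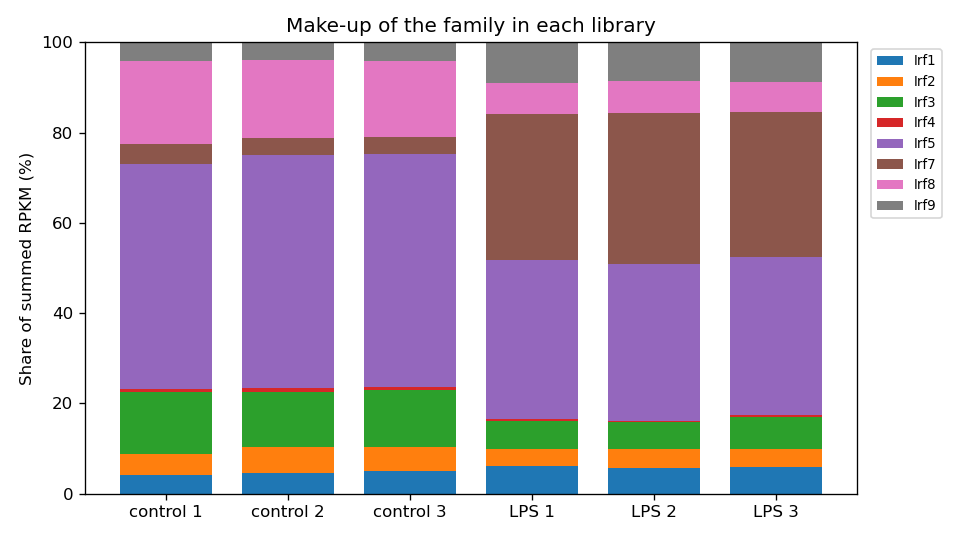
Share of each member, in percent, of the RPKM summed over the 8 genes, with 1 stacked bar for each library. Irf7 grows from 4.03% of the family in control to 32.7% with LPS on average, and the 3 libraries of a group look alike.

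Of 24 sensors, adaptors and kinases upstream of the IRF, all tested, 14 were higher, 1 was lower and 9 did not pass, with a median log2FC of 0.22. The largest rises were those of cytosolic RNA sensors and of an IRF kinase. Ddx58, which encodes RIG-I, rose from 8.03 ± 0.785 to 171 ± 9.16 CPM, with a log2FC of 4.41 (SE 0.07, edgeR adjusted p = 1.70e-15). Ifih1, which encodes MDA5, had a log2FC of 3.52 (edgeR adjusted p = 9.27e-14), and Ikbke, the inducible kinase of Irf3 and Irf7, one of 1.81 (edgeR adjusted p = 5.39e-12). Tlr4, the LPS receptor, was the gene that fell, from 88.3 ± 3.32 to 61.4 ± 3.96 CPM (SD, n = 3), with a log2FC of −0.52 (SE 0.06, edgeR adjusted p = 3.64e-06). Of 15 DNA-binding partners and coactivators, 12 were tested, 10 were higher and none was lower, with a median log2FC of 0.58 (9 of 11 and 0.57 without Batf2, which passed the filter on low counts through the LPS libraries). Spib, Batf and Batf3 had too few counts to be tested. Batf2, a partner of Irf1, had 10, 6 and 15 counts in control and 56, 68 and 49 with LPS.

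Stat2, a partner of Irf9 in ISGF3, also rose. Of 9 interferon receptor and JAK-STAT genes, 5 were higher, 1 was lower and 3 did not pass, with a median log2FC of 0.22. Stat2 rose from 18.9 ± 2.64 to 89.6 ± 7.33 CPM, with a log2FC of 2.24 (SE 0.09), beside 2.08 for Irf9. The log2 ratio of Irf9 to Stat2 counts was −0.41, −0.78 and −0.39 in control and −0.58, −0.82 and −0.71 with LPS. The groups overlapped, and the difference of −0.17 (SE 0.14) had p = 0.3 in the exact permutation test (0.4 after adjustment over 4 pairs). Leaving out 1 library at a time moved it between −0.30 (without control replicate 2) and −0.10 (without control replicate 3). Tyk2, a kinase of the interferon receptor, had a log2FC of 0.92 (edgeR adjusted p = 8.13e-09). Ifngr1, the ligand-binding chain of the interferon gamma receptor, fell by 0.29 on the log2 scale (SE 0.09, edgeR adjusted p = 0.0258), a call that was lost with DESeq2 (adjusted p = 0.0781) and without control replicate 1, LPS replicate 1 or LPS replicate 2 (edgeR adjusted p between 0.051 and 0.0853).

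**Figure D4:**
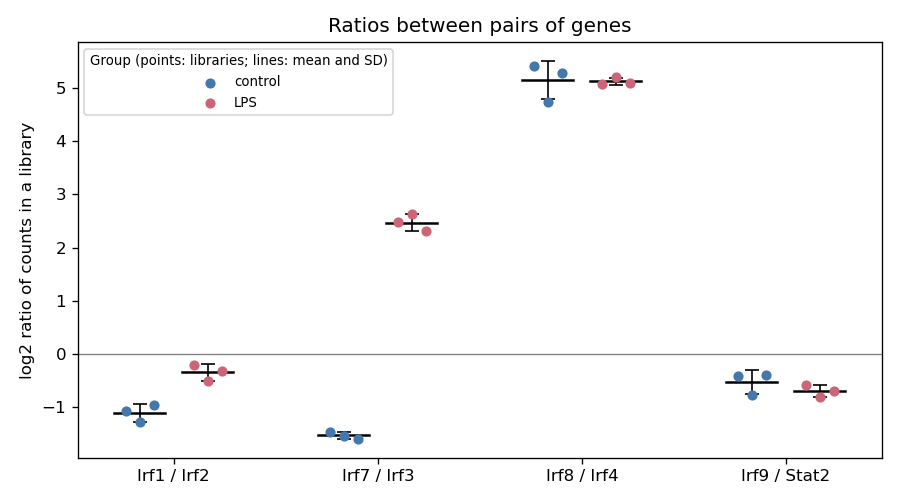
Log2 ratio of the counts of a pair of genes within each library (points) with the group mean and SD in black (n = 3). Irf7 to Irf3 moves from below 0 to above 0, Irf1 to Irf2 moves up by 0.76, and the other pairs overlap between groups.

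Of 12 corepressors and inhibitors of IRF activity, 8 were higher, none was lower and 4 did not pass, with a median log2FC of 1.25. Prdm1 and Socs1 passed the filter on low counts through the LPS libraries. Without them, 6 of 10 genes were higher and the median was 0.25. Usp18, which blocks signalling at the interferon receptor, had the largest log2FC, 5.50 (SE 0.11, edgeR adjusted p = 8.08e-15). Prdm1, which encodes the repressor Blimp-1, had 3, 4 and 2 counts in control and 22, 29 and 30 with LPS. Trim30a, an inhibitor of inflammatory signalling, had a log2FC of 2.97 (SE 0.06, edgeR adjusted p = 1.35e-14). Of the listed genes named after Irf2, Irf2bp2 had a log2FC of 0.34 and Irf2bpl one of 0.17, and both passed. Irf2bp1, with −0.17, did not pass. The call of Irf2bpl was lost without control replicate 3 (edgeR adjusted p = 0.0643) or LPS replicate 2 (0.0912).

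Of 37 target genes of the IRF, 33 were tested and all 33 were higher, with a median log2FC of 5.19. With control replicate 1 as the only control library, 32 were higher, as Psmb8 lost its call (edgeR adjusted p = 0.069). Ccl5, Mx1, Mx2, Ifi44, Gbp5, Nos2 and Tnfsf10 passed the filter on low counts through the LPS libraries, so the count of 33 is a description, and the median without these 7 was 3.88. The median over all 33 was 4.60 with Nos2, Gbp5 and Ifi44, whose control libraries held at most 3 counts each, set against 3 counts per library. Leaving these 3 aside, log2FC ran from 0.38 for Psmb8 to 7.40 for Rsad2. Rsad2, which encodes the antiviral enzyme viperin, rose from 6.89 ± 1.198 to 1160 ± 76.3 CPM (SD, n = 3), with a log2FC of 7.40 (SE 0.09). Ifit3, an interferon-stimulated gene, rose from 0.884 ± 0.114 to 131 ± 10.8 CPM (SD, n = 3), with a log2FC of 7.21 (SE 0.11). Nos2, the inducible nitric oxide synthase, had 0, 2 and 2 counts in control and 285, 385 and 312 with LPS. The 4 targets not tested were near 0 in all libraries. Ifnb1, which encodes interferon beta, had 0 counts in each control library and 1, 1 and 0 with LPS at 6 h. Ciita, Il12b and Il27 had at most 4 counts in any library.

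**Figure D5:**
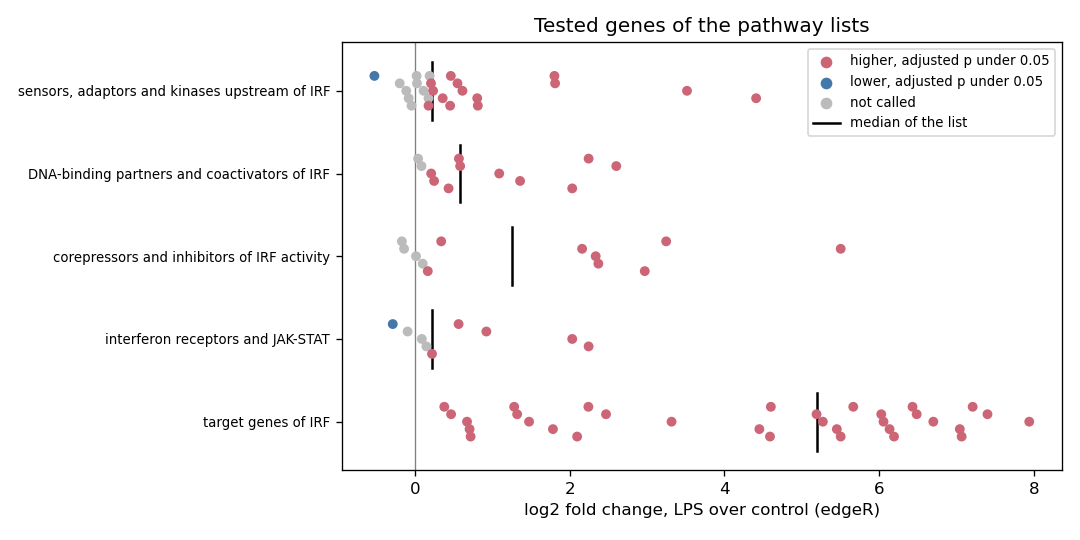
Log2 fold change of every tested gene of the pathway lists, LPS over control, from edgeR. Red points are higher and blue points lower at an adjusted p under 0.05, grey points did not pass, and black lines are list medians. All 33 tested target genes lie to the right of 0, with Nos2 farthest right, fitted against 0 to 2 counts in control, and the other lists hold genes on either side or near 0.

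The genes most alike to each changed member were sought among 10457 genes that averaged 50 counts or more, by the root mean square distance of log2 profiles centred over the 6 libraries. Nearest to Irf7 were Dhx58 (distance 0.0971), Ifi204 (0.115) and Parp14 (0.136), with log2FC of 3.88, 4.14 and 4.04. Nearest to Irf9 were Socs3 (0.0277), Igsf6 (0.0363) and Ccl4 (0.0377), with log2FC of 2.08, 2.10 and 2.03. For Irf1 they were Adra1a (0.0401), H2-Q4 (0.050) and Nlrc5 (0.0510), and for Irf2 Snai1 (0.0495), Sema5a (0.0649) and Pip5k1b (0.0673). Irf5 was matched most closely of the 6, by Fyb (0.0137), Mapk6 (0.0189) and Rapgef1 (0.0191). For Irf8 they were Auh (0.0300), Plod1 (0.0322) and Aacs (0.0333). With only 2 groups, genes of like fold change lie close by this measure whatever they do.

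Of the other neighbours on the chromosomes, Scaf1 lies 99 bases from Irf3 and had a log2FC of 0.02. Gm16675 starts 216 bases from Irf2 on the opposite strand and had a log2FC of 0.80 (edgeR adjusted p = 0.0885). Psme2, 12457 bases from Irf9, rose from 64.0 ± 16.6 to 118 ± 7.66 CPM (SD, n = 3), with a log2FC of 0.89 (SE 0.13). Gm15545, 3050 bases from Irf3, had a log2FC of 0.11. The genes overlapping Irf1, Irf2 and Irf8 held at most 3 counts in any library. Whether counting used strand is not given in the sources used here, so reads of genes that overlap on opposite strands may not have been separated.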

How the data were processed

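RNA of N9 microglia was sequenced by Novogene on a NovaSeq instrument. The authors deposited whole-number read counts per gene, without normalization, with gene positions and lengths. The submitters' processing notes name featureCounts 1.5.0-p3 and mm10, and the aligner and strand setting are not given in the sources used here. A second deposited table holds the authors' own comparison made with DESeq2 (fold changes and p-values) and was not used.

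Counts were tested with edgeR 4.0.16 under R 4.3.3 (quasi-likelihood, TMM scaling, filterByExpr, prior count 0.125, no replicate term, as groups of 3). The p-values were adjusted by the Benjamini-Hochberg method over 12296 tested genes, and a DEG needed an adjusted p under 0.05 and an absolute log2FC over 1.5. SE was taken as log2FC over the root of F. Log2 ratios within a library used 0.5 added counts and exact two-sided permutation tests over libraries (scipy 1.17.1, Python 3.11.15, matplotlib 3.10.9). Within each group, libraries differed by more than sampling noise (chi-square per gene 3.47 to 7.35). The fit was tested on simulated data. As reads carried no molecular identifiers, limits from 3 counts cover counting error only.

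Named genes were all 8 members, the 3 largest rises and 2 largest falls among called genes of each pathway list, the 3 genes nearest in pattern to each called member, and neighbouring or overlapping genes. Some genes under this rule are not reported here. Genes outside this rule are named as markers, partners or untested members of a list and were chosen after their values were seen. The pattern search was first run with 0.5 CPM added and was changed to 0.5 added counts after its genes were seen. The members and lists were chosen with earlier results of these data known.

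Alternatives were DESeq2 1.42.0, RLE size factors, no filter, a filter at a mean of 10 counts, robust dispersion, glmTreat, a prior count of 2, a replicate block, each library left out, and, added after seeing the data, another gene length, control replicate 1 alone, and lists without genes low in control.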

Additional observations from a re-analysis of the deposited data

How the results depend on the processing

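With glmTreat, which tests against the fold threshold, only the count of DEG was taken, and it was again 2. Under the other alternative fits with more than 1 control library, the 6 called members were called each time, 5 higher and 1 lower. The count of DEG (2) was also the same wherever it was taken. Log2FC lay between 3.80 and 4.04 for Irf7, 2.05 and 2.11 for Irf9, and 1.23 and 1.44 for Irf1, control replicate 1 alone included. It lay between 0.46 and 0.72 for Irf2, 0.38 and 0.43 for Irf5, and −0.48 and −0.36 for Irf8. Irf3 and Irf4 were never called. Irf3 changed sign without control replicate 1 (0.00155), with leave-one-out values from −0.0883 to 0.00155. The difference in the log2 ratio of Irf8 to Irf4 ran from −0.226 to 0.112 with 1 library left out. Among corepressors, the count of lower genes went from 0 to 1 (Rbck1) with RLE size factors, no filter, robust dispersion, the replicate block, or control replicate 1 alone, and ran from 0 to 1 with 1 library left out (1 without control replicate 2). Among JAK-STAT genes it went from 1 to 0 (Ifngr1) with DESeq2 and with control replicate 1 alone, and from 0 to 1 with 1 library left out (0 without control replicate 1, LPS replicate 1 or LPS replicate 2). The median of the corepressors went from 1.25 to 0.253 without genes that fewer than 3 control libraries covered with 10 counts, which leaves fewer genes. The cause of the other changes was not tested. By Pearson's r, at most 1 of the 3 genes nearest in pattern was shared for any member. With 0.5 CPM added, chosen first and then replaced, 1 of 3 was shared for Irf7, whose nearest genes were then Slfn8, Apol9b and Ifi204, and 2 or 3 for the others. Same-numbered libraries correlated at 0.131, 0.0484 and 0.0049, and differently numbered ones at −0.121 to 0.0772. With so few libraries these values do not settle whether the numbers mark pairs, and the main test did not use them as pairs. The replicate block left the members higher (5), lower (1) and DEG (2) as they were. Lengths of RefSeq coding sequences were planned but not run, and the transcript length was chosen after seeing the data. Depth limits Irf4 (25 to 48 counts) most.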
